A study of Mus musculus with 15 samples.

Results

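The 3 mouse tumors harvested on day 7 of a course of poly(I:C) injections were compared with the 3 untreated tumors harvested on day 0, to describe which transcripts lay at their untreated level at the end of the course and which did not. The 6 tumors were chosen by the harvest day in their labels and are 6 of the 15 tumors sequenced, the other 9 having been taken on days 1, 3 and 5. Cells read poly(I:C), an artificial RNA duplex, as a sign of viral infection. RNA-seq of poly(A) RNA was run on whole tumors cleared of surrounding tissue.

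All 6 tumors grew under the skin of wild-type female BALB/c mice from WEHI-164, a single mouse fibrosarcoma cell line, and carried no engineered allele per the labels. The day 0 tumors received nothing. The day 7 tumors received poly(I:C) into the tumor every day for up to 6 days, and the labels give 1 µg in 25 µL per dose, while a legend of the study names another daily amount for this schedule, so the dose is uncertain. No day 7 tumor injected with vehicle was analysed here, so the effect of the injections and that of a further week of tumor growth cannot be told apart. A tumor is also a mixture of cancer cells, stroma, vessels and immune cells, so in these bulk samples fewer cells of a type and less RNA per cell cannot be told apart.

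Double-stranded RNA is sensed in the endosome by TLR3 and in the cytoplasm by RIG-I (Ddx58) and MDA5 (Ifih1). These sensors switch on type I interferons, whose receptor signals through JAK kinases to a large set of antiviral genes. Interferon gamma, made by T cells and natural killer (NK) cells, raises antigen presentation, chemokines such as CXCL9 and CXCL10, and the checkpoint ligand PD-L1. Feedback inhibitors such as USP18 keep the response in check.

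Total estimated counts ran from 23718507 to 29812287 per tumor, so a gene without counts could lie at up to 0.101 to 0.126 CPM (the usual count unit relative to library size, scaled between tumors by TMM, a trimmed mean of M-values), a limit of 3 counts that covers counting error only. Tumors of a group differed by more than counting error in every pair. Vim, an intermediate filament of mesenchymal cells, lay between 4130 and 5170 CPM in the 6 tumors, and Epcam, an epithelial adhesion molecule, was too low to test in a tumor set labelled fibrosarcoma. Krt8, a keratin best known from epithelia, was nevertheless present at 107 to 170 CPM.

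The 3 day 7 tumors did not form 1 tight group. Day 7 replicate 2 correlated with day 0 replicates 2 and 3 at 0.987 and 0.986 across genes, above its values with day 7 replicates 1 and 3, which were 0.974 and 0.966. Of 35 gene lists, replicate 2 lay above the day 0 range in 19, inside it in 13 and below it in 3, whereas replicate 1 lay below it in 22 and replicate 3 in 25. The median SD of log2 CPM among the 3 tumors was 0.183 on day 7 and 0.124 on day 0. Skeletal muscle transcripts separated the same tumors. The summed level of 17 of 17 tested muscle genes was 198 to 294 CPM on day 0 and 14.5, 254 and 9.36 CPM in day 7 replicates 1, 2 and 3. Many results below split the day 7 tumors in this way and are to be read beside these values, also where muscle is not named again. The part of muscle in those results was not tested.

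**Figure D1:**
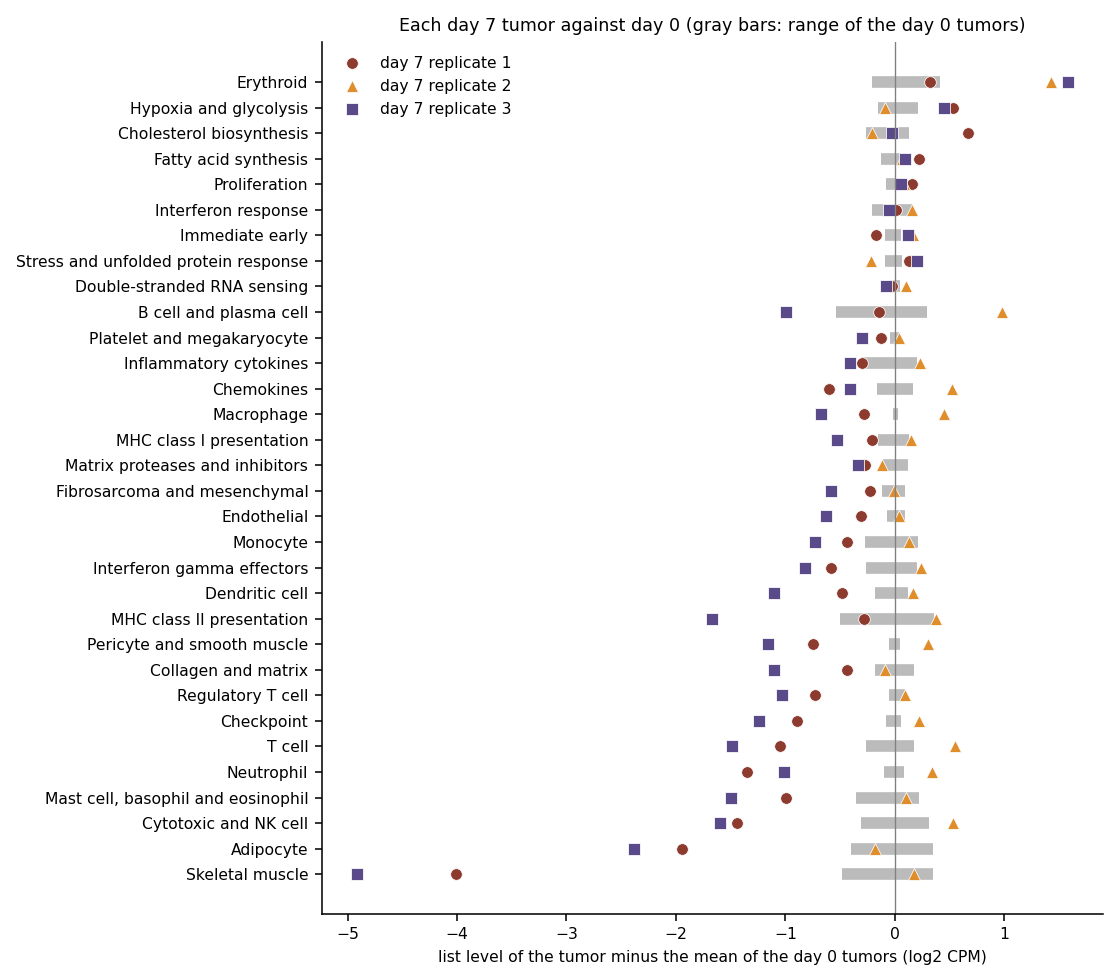
Each row is a gene list and each marker 1 day 7 tumor, placed by its mean log2 CPM minus the mean of the 3 day 0 tumors, with the day 0 range as a grey bar. Replicate 2 sits above replicates 1 and 3 in the T cell list (0.55 against -1.05 and -1.49) and below them in the hypoxia list (-0.09 against 0.53 and 0.45).

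Of 15494 genes tested, 1 was called at an adjusted p under 0.05 by the quasi-likelihood test of edgeR, which is 0.00645% of them, and it was higher on day 7. An unadjusted p under 0.05 was reached by 749 genes (4.83%), of which 308 were higher (1.99%) and 441 lower (2.85%). For 11852 genes (76.5%) the whole 95% interval of the fold change lay within 2-fold in either direction, so for these a larger difference between the groups was outside the interval. The 3 day 7 tumors lay entirely above the 3 day 0 tumors for 778 genes (5.02%) and entirely below them for 970 (6.26%), and all 3 lay inside the day 0 range for 1458. An unadjusted p under 0.05 was reached by 317 genes (2.05%) when all 15 tumors were fitted together and by 1446 (9.33%) with voom and quality weights, so the number past that line depended on the method. The count called was sensitive to 1 tumor. Without day 7 replicate 2 it was 201 genes, 1.3% of those tested, of which 19 were higher (0.123%) and 182 lower (1.17%). That tumor was set apart by its own expression values. Calls made without it, here and below, show what depends on that tumor and are no separate support for a difference. Leaving out any other tumor gave 0 to 2 calls, and the gene called from all 6 tumors was called again without day 0 replicate 2 and without day 7 replicate 2 but not without day 0 replicate 1 or 3 or day 7 replicate 1 or 3. Without day 7 replicate 1 the single call was instead Hba-a2, an alpha globin.

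The called gene was Gm20431, a predicted protein-coding gene on chromosome 2 of GRCm38 (chr2:167607850-167661496, minus strand). It had 0 counts in each day 0 tumor and 168, 125 and 138 counts in the 3 day 7 tumors (edgeR adjusted p = 0.0287, and 0.0943 to 0.292 without day 0 replicate 1 or 3 or day 7 replicate 1 or 3). The groups do not overlap, but the treated tumors of day 5 were uneven, with 0, 413 and 0 counts. Its annotated span runs over Ube2v1 and Tmem189 on the same strand, and kallisto, the counter used, divides reads that fit several transcripts, so the count is uncertain. Ube2v1, a ubiquitin-conjugating enzyme variant, was at 151, 147 and 141 CPM on day 0 and 144, 162 and 147 CPM on day 7. Tmem189, a desaturase of plasmalogen lipids, was at 87.0, 90.9 and 84.8 CPM and then at 83.6, 88.2 and 86.1 CPM. The tumors of both days overlapped in both neighbours.

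The interferon response was near its day 0 level on day 7. On a scale of mean log2 CPM over its 40 tested genes, the list stood at 5.74 ± 0.19 on day 0 and 5.78 ± 0.11 on day 7 (SD, n = 3), and all 3 day 7 tumors lay inside the day 0 range. Set against the same 3 untreated tumors, days 1, 3, 5 and 7 differed from them by 1.22, 1.2, 0.45 and 0.041 on this scale. None of the 40 genes was called by edgeR or by DESeq2, 3 had an unadjusted p under 0.05, 24 were on the higher side against 44.5% of all genes, and the median log2 fold change was 0.024 against -0.02 over all genes, turning to -0.043 without day 0 replicate 1 and -0.035 without day 7 replicate 2. For 38 of the 40 the 95% interval lay within 2-fold, beside 76.5% of all genes. Ifi27l2a was among the exceptions. All 3 day 7 values lay inside the day 0 range for 6 of the 40 genes.

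**Figure D2:**
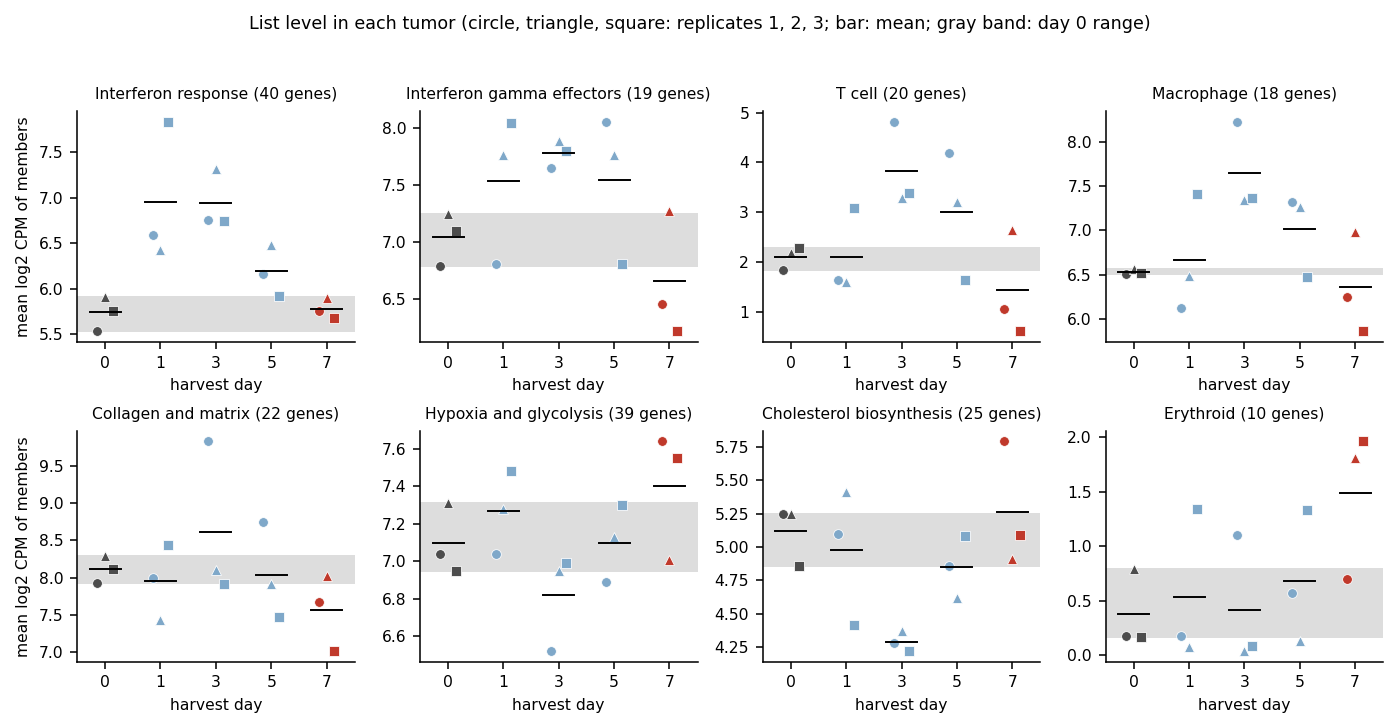
Mean log2 CPM of the tested members of each gene list on days 0, 1, 3, 5 and 7, with 1 point per tumor, a bar at each daily mean and the day 0 range as a grey band. The interferon response list stands 1.22 above day 0 on day 1 and 0.041 above it on day 7, while the collagen list on day 7 is 0.55 below and the erythroid list 1.11 above.

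Isg15, a ubiquitin-like antiviral modifier (chr4:156199424-156200818, minus strand), was at 35.1, 43.1 and 37.2 CPM on day 0 and 45.8, 43.8 and 48.2 CPM on day 7. Every day 7 tumor was above every day 0 tumor, by a small margin, at a log2 fold change of 0.26 (95% interval 0.028 to 0.48, edgeR unadjusted p = 0.0322, adjusted p = 0.957). The daily means of Isg15 were 38.5, 147, 103, 53.8 and 45.9 CPM from day 0 to day 7. Irf7, the transcription factor that amplifies type I interferon, was at 60.4, 97.1 and 85.2 CPM on day 0 and 81.2, 125 and 75.7 CPM on day 7, with overlapping tumors and a log2 fold change of 0.22 (-0.4 to 0.83). Its mean had been 403 CPM on day 1 and 500 CPM on day 3. Ifit1, which binds viral RNA ends, was at 43.1, 47.0 and 42.3 CPM and then at 47.6, 36.8 and 52.0 CPM, a log2 fold change of 0.044 (-0.26 to 0.34), against a day 1 mean of 118 CPM.

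The other interferon genes with an unadjusted p under 0.05 were both on the higher side. Isg20, an exonuclease of viral RNA, was at 12.8, 17.5 and 15.3 CPM on day 0 and 21.8, 18.1 and 20.6 CPM on day 7, without overlap (log2 fold change 0.41, edgeR unadjusted p = 0.0197). Oas2, which makes the signal for RNase L, was at 65.1, 76.5 and 67.6 CPM and then at 72.9, 90.4 and 91.2 CPM, with 1 day 7 tumor inside the day 0 range. Ifi27l2a, an interferon-induced mitochondrial protein, had the widest spread in the list, at 9.41, 21.9 and 16.2 CPM on day 0 and 29.8, 23.5 and 17.5 CPM on day 7 (log2 fold change 0.58, -0.25 to 1.41). At 2 of 40, the share of interferon genes entirely above day 0 was near the 5.02% of all genes.

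Parp14, an interferon-induced ADP-ribosyltransferase, was at 179, 202 and 189 CPM on day 0 and 140, 197 and 137 CPM on day 7. Replicates 1 and 3 were below all day 0 tumors and replicate 2 was among them. Over the 3 tumors the log2 fold change was -0.26 (-0.6 to 0.073), and without replicate 2 it was -0.46 (edgeR adjusted p = 0.047). It was 1 of 2 genes called among the 40 of the list without that tumor, both lower, beside 1.3% of all genes. Parp14 was named after its values were seen.

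**Figure D3:**
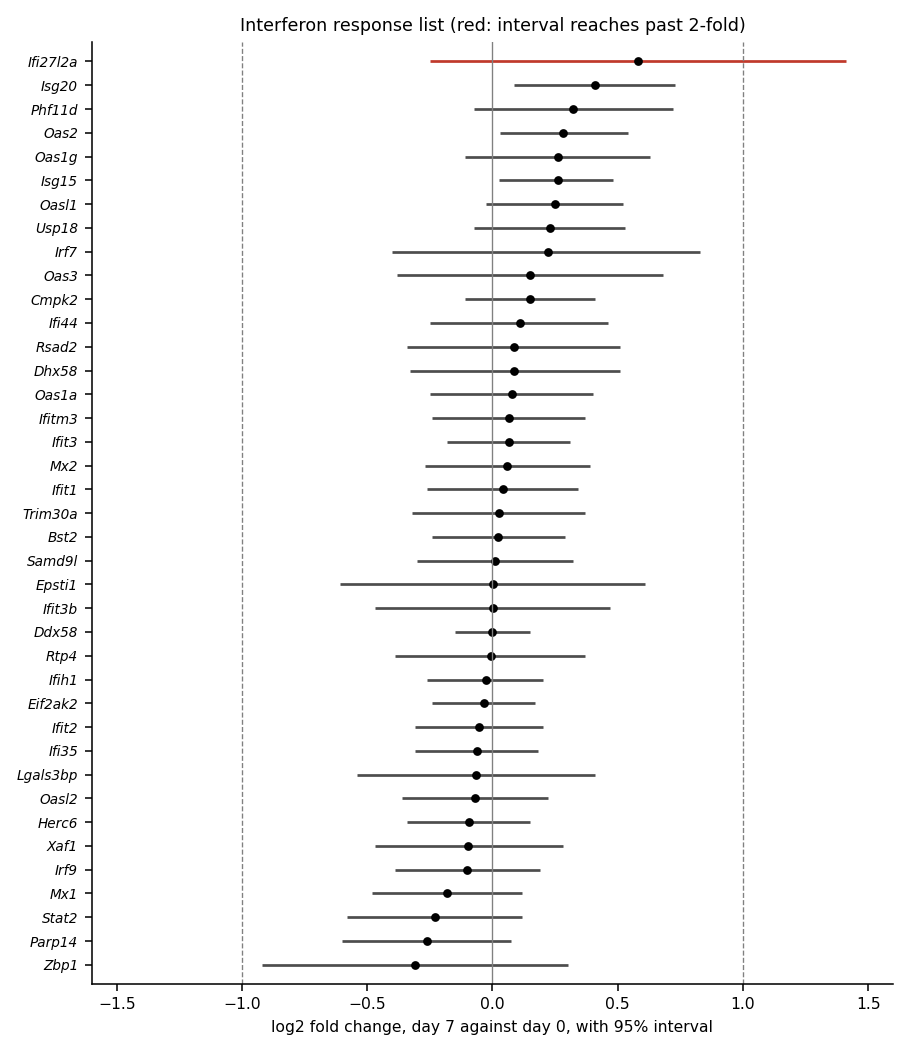
Log2 fold change of day 7 over day 0 for the interferon response genes, 1 gene of the list not shown, with 95% intervals from the edgeR fit and dashed lines at 2-fold. The intervals lie between the dashed lines except that of Ifi27l2a (-0.25 to 1.41), drawn in red.

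Type I interferon acts on its target genes through a short promoter element. The element is shown in Isg15 and Ifit1 of the interferon response list and in Cxcl10, a chemokine gene outside that list. Levels of all 3 genes are given in this report. The core of the interferon-stimulated response element was searched as GAAA, any 2 bases and another GAAA, or TTTC, any 2 bases and TTTC on the other strand, in the 250 bases before each RefSeq start (GRCm38.p6). It was found in 11 of the 30 list promoters in the RefSeq table (36.7%) and in 936 of 27025 promoters in all (3.46%). Each stretch is written 5′ to 3′ on the strand of its gene, with 1 match in capitals. Isg15 is on the minus strand (chr4:156200850-156200909, match 66 to 57 bases before the start), Ifit1 on the plus strand (chr19:34640779-34640838, 85 to 76 bases before) and Cxcl10 on the minus strand (chr5:92349068-92349127, 213 to 204 bases before). A match is a description of letters and no measure of binding.
Isg15: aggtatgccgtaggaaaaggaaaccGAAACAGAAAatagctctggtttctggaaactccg
Ifit1: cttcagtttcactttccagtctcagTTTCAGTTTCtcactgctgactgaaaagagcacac
Cxcl10: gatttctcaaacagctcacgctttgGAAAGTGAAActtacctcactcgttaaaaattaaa

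Sensors of the injected RNA lay near day 0, and the interferon genes themselves were barely counted. Tlr3, the endosomal sensor of poly(I:C), was at 17.6, 21.1 and 20.8 CPM on day 0 and 19.4, 19.4 and 15.7 CPM on day 7, a log2 fold change of -0.13 (-0.42 to 0.17). Of 12 tested genes of double-stranded RNA sensing, 12 had an interval within 2-fold, 6 were on the higher side, and the median log2 fold change was 0.0065. None of the 20 type I and III interferon genes was expressed highly enough to test. In all 6 tumors 20 of 20 had at most 3 counts and 16 had none, and Ifnb1, encoding interferon beta, had 3, 1 and 1 counts on day 0 and 3, 3 and 1 on day 7.

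Effectors of interferon gamma lay lower in 2 of the 3 day 7 tumors. Relative to the day 0 mean, the 19-gene list stood at -0.58, 0.24 and -0.82 on the mean log2 CPM scale in day 7 replicates 1, 2 and 3, and replicate 2 was the highest day 7 tumor for 19 of 19 genes. All 19 were on the lower side, beside 55.5% of all genes, with a median log2 fold change of -0.32, but the tumors of both days overlapped for each, and 1 had an unadjusted p under 0.05. Without replicate 2, 8 of the 19 were called lower by edgeR, beside 1.17% of all genes. Leaving out the highest day 7 tumor favours calls on the lower side, so this count is no separate support. Muscle transcripts split the day 7 tumors the same way, at a mean log2 CPM of -4.01, 0.18 and -4.91 from the day 0 mean.

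Ifng itself was at 1.65, 2.05 and 2.72 CPM on day 0 and 0.692, 3.16 and 0.711 CPM on day 7 (log2 fold change -0.48, -1.94 to 0.97). Replicates 1 and 3 were below every day 0 tumor and replicate 2 above them. Gbp6, an interferon-induced guanylate-binding GTPase, was the gene with an unadjusted p under 0.05, at 51.8, 68.5 and 57.3 CPM and then at 33.4, 52.8 and 29.1 CPM (log2 fold change -0.62, edgeR unadjusted p = 0.0368). Cxcl10, a chemokine for activated T cells, was at 116, 142 and 145 CPM on day 0 and 90.3, 171 and 114 CPM on day 7 (log2 fold change -0.1, -0.68 to 0.48), and its daily means were 134, 281, 234, 220 and 125 CPM. Iigp1, an immunity-related GTPase, had 415, 584 and 506 CPM and then 312, 528 and 238 CPM.

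Cd274, encoding PD-L1, was at 65.8, 88.1 and 76.0 CPM on day 0 and 38.4, 106 and 43.3 CPM on day 7. The day 7 tumors lay on both sides of the day 0 range, with replicate 2 above and the others below. Its log2 fold change was -0.29 (-1.32 to 0.74), against a mean of 192 CPM on day 3. Without replicate 2 it was -0.91 (edgeR adjusted p = 0.0244), and that of Pdcd1lg2, encoding PD-L2, was -2.73 (adjusted p = 0.0112). Of the 12 tested checkpoint genes 12 were on the lower side, beside 55.5% of all genes, with a median of -0.38, and 4 were called without replicate 2, beside 1.3%. Presentation genes of MHC class I were 13 of 13 within 2-fold and 13 of 13 on the lower side (median -0.19). For the 8 MHC class II genes the median was -0.35 (0.027 without day 7 replicate 3), and none had an interval within 2-fold, so a return of class II to day 0 could not be judged from these tumors.

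T cell transcripts were below day 0 in 2 of the 3 day 7 tumors and above it in replicate 2. The T cell list stood at 2.1 ± 0.23 on day 0 and 1.44 ± 1.07 on day 7 in mean log2 CPM (SD, n = 3), the day 7 tumors lying at -1.05, 0.55 and -1.49 from the day 0 mean. The differences of the earlier days from day 0 were 0.002 on day 1, 1.73 on day 3 and 0.9 on day 5. Of 20 tested genes 18 were on the lower side (median -0.41), 1 had an unadjusted p under 0.05, 1 had an interval within 2-fold and none was called by edgeR. Without replicate 2, 5 of the 20 were called, beside 1.3% of all genes.

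Cd4, the helper T cell coreceptor, was at 7.15, 6.67 and 6.61 CPM on day 0 and 1.83, 9.09 and 1.17 CPM on day 7. Replicate 2 was above all day 0 tumors and the others were below them. Its log2 fold change was -0.75 (-2.61 to 1.11), and -2.18 without replicate 2 (edgeR adjusted p = 0.0101). Cd8a, the coreceptor of killer T cells, was split likewise, at 5.33, 9.12 and 8.97 CPM and then at 3.78, 12.7 and 2.88 CPM. Tcf7, a transcription factor of naive and stem-like T cells that other cells use too, was at 139, 105 and 105 CPM on day 0 and 72.6, 80.9 and 89.6 CPM on day 7. It was the only T cell gene without overlap, with a log2 fold change of -0.52 (-0.83 to -0.22, edgeR unadjusted p = 0.00464), and its daily means were 117, 87.1, 64.8, 90.6 and 81.1 CPM.

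Granzymes, the proteases that killer cells release, showed both patterns. Gzmb was at 33.8, 28.9 and 40.4 CPM on day 0 and 9.64, 39.5 and 9.2 CPM on day 7 (log2 fold change -0.82, -2.33 to 0.69), and without replicate 2 the value was -1.87 (edgeR adjusted p = 0.00351). Gzmc (chr14:56231441-56234656, minus strand) was at 42.7, 31.9 and 67.8 CPM and then at 12.0, 25.7 and 13.3 CPM. Here every day 7 tumor was below every day 0 tumor. That log2 fold change was -1.48 (-2.47 to -0.49, edgeR unadjusted p = 0.0117), and DESeq2 called the gene (adjusted p = 0.00542). DESeq2 called 33 genes in all (0.213%), 14 higher (0.0904%) and 19 lower (0.123%). In the cytotoxic and NK list 13 of 19 genes were on the lower side (median -0.23, but 0.096 without day 7 replicate 1 and 0.11 without day 7 replicate 3), 2 had an unadjusted p under 0.05, and 3 were called by edgeR without replicate 2, beside 1.3% of all genes.

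**Figure D4:**
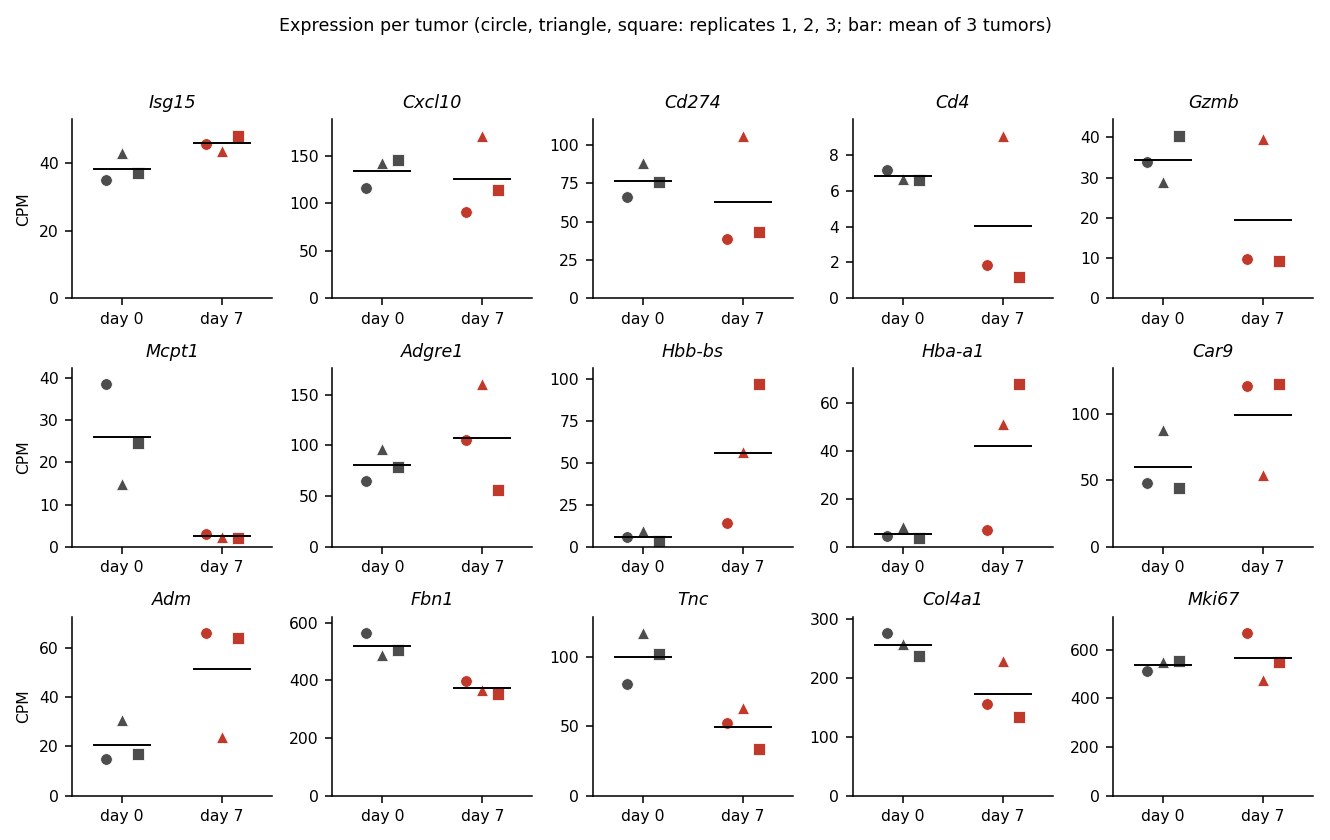
CPM of 15 genes in each of the 3 day 0 and 3 day 7 tumors, with a bar at the mean of each group. For Cd4, Gzmb and Cd274 replicate 2 of day 7 lies with or above day 0 and the other 2 below, for Mcpt1, Fbn1 and Tnc all 3 day 7 tumors lie below day 0, and for Hbb-bs all 3 lie above.

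Regulatory T cell genes were 9 of 10 on the lower side (median -0.4), and 2 had an unadjusted p under 0.05. Il2ra, the high-affinity interleukin 2 receptor chain, was at 10.3, 8.6 and 13.1 CPM on day 0 and 3.38, 7.61 and 3.6 CPM on day 7, without overlap (log2 fold change -1.13, -1.93 to -0.33, edgeR unadjusted p = 0.0126). Ikzf2, encoding Helios, did not overlap either, at 8.77, 7.67 and 7.53 CPM and then at 5.25, 6.24 and 4.35 CPM. Foxp3, the lineage-defining factor, was at 3.51, 2.23 and 2.6 CPM on day 0 and 2.48, 2.47 and 1.42 CPM on day 7, with overlap (log2 fold change -0.39). At 2 of 10, the share entirely below day 0 compares with 6.26% of all genes. Ccr7, the lymph node homing receptor in the dendritic cell list, was at 4.08, 3.24 and 3.56 CPM and then at 1.67, 2.24 and 1.0 CPM, again without overlap (log2 fold change -1.14, edgeR unadjusted p = 0.00664). In that list 9 of 12 genes were on the lower side, beside 55.5% of all genes (median -0.44). Entirely below day 0 were 4 of the 12, beside 6.26% of all genes. Its day 7 tumors stood at -0.48, 0.17 and -1.1 from the day 0 mean in mean log2 CPM.

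Macrophage transcripts straddled day 0. The list stood at 6.53 ± 0.026 on day 0 and 6.36 ± 0.57 on day 7 in mean log2 CPM (SD, n = 3), with day 7 tumors at -0.28, 0.45 and -0.67 from the day 0 mean, after a difference of 1.12 on day 3. Of 18 tested genes 10 were on the higher side (median 0.052, but -0.042 without day 0 replicate 1 and -0.26 without day 7 replicate 2), none had an unadjusted p under 0.05 and 8 had an interval within 2-fold. Adgre1, encoding F4/80, was at 65.2, 96.8 and 78.8 CPM on day 0 and 105, 160 and 55.8 CPM on day 7 (log2 fold change 0.42, -0.55 to 1.38). Cd68, a lysosomal glycoprotein of macrophages, was at 105, 115 and 118 CPM and then at 102, 151 and 80.7 CPM (log2 fold change -0.013, with the opposite sign in DESeq2). Cd163, the haptoglobin-haemoglobin scavenger receptor, was at 33.3, 18.4 and 20.8 CPM on day 0 and 3.01, 18.7 and 5.43 CPM on day 7, low in replicates 1 and 3. Arg1, encoding arginase, was at 307, 145 and 147 CPM and then at 118, 150 and 132 CPM.

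Monocyte transcripts lay below or inside the day 0 range. The day 7 tumors stood at -0.44, 0.13 and -0.73 from the day 0 mean of the 12-gene list in mean log2 CPM, with 7 of 12 genes on the lower side and a median of -0.11, which was -0.35 without day 7 replicate 2, 0.034 without the day 0 tumor of that number, and 0.079 and 0.19 when replicate 1 or 3 of day 7 was left out. Ly6c2, which marks inflammatory monocytes, was at 11.4, 19.0 and 15.1 CPM on day 0 and 12.7, 21.8 and 10.7 CPM on day 7 (log2 fold change -0.0099, which turned to 0.0018 with TMM factors of the 6 tumors alone), after a mean of 77.0 CPM on day 3. S100a8, a calcium-binding protein of neutrophils, was at 1.08, 2.31 and 2.52 CPM and then at 0.814, 3.19 and 0.794 CPM. The list of neutrophil genes had 10 of 10 tested on the lower side with a median of -0.39, and its day 7 tumors stood at -1.35, 0.34 and -1.01 from the day 0 mean, replicate 2 above the day 0 range and the others below.

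Chemokines differed from each other. Ccl2, which draws monocytes, was at 177, 169 and 174 CPM on day 0 and 177, 237 and 207 CPM on day 7 (log2 fold change 0.25, edgeR unadjusted p = 0.0486). Cxcl2, which draws neutrophils, was at 1.35, 2.01 and 2.24 CPM and then at 2.07, 5.97 and 3.3 CPM (log2 fold change 1.02, edgeR unadjusted p = 0.0368). Both had at least 1 day 7 tumor in the day 0 range. Ccl5, a T cell and NK cell product, was at 21.5, 25.8 and 20.5 CPM on day 0 and 6.92, 34.6 and 9.36 CPM on day 7, and its daily means were 22.6, 73.4, 126, 53.0 and 17.0 CPM. Without replicate 2 its log2 fold change was -1.47 (edgeR adjusted p = 0.0114). Ccl8 was at 191, 119 and 108 CPM and then at 27.2, 148 and 27.6 CPM. Of the 18 tested chemokines 7 were on the higher side (median -0.063), and of 17 inflammatory cytokines 8 (median -0.057), and both medians were above 0 without day 7 replicate 1 (0.1 and 0.11) or 3 (0.061 and 0.059), that of the chemokines also without day 0 replicate 2 (0.034). B cell and plasma cell genes were on the higher side for 8 of 11 (median 0.26, but -0.92 without day 7 replicate 2 and -0.0062 without day 0 replicate 2), none with an interval within 2-fold.

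The mast cell proteases Mcpt1 and Mcpt2, named by their small p, lay below day 0 in every day 7 tumor, while the list of mast cell, basophil and eosinophil genes did not separate the days. Mcpt1 (chr14:56017971-56020384, plus strand), a chymase of mucosal mast cells, was at 38.5, 15 and 24.6 CPM on day 0 and 3.13, 2.28 and 2.05 CPM on day 7. The lowest untreated tumor was above the highest day 7 tumor, and replicate 2 was with the other day 7 tumors. The log2 fold change was -3.39 (-4.3 to -2.47), with an edgeR unadjusted p = 0.000111 and adjusted p = 0.526 and a DESeq2 adjusted p = 1.94e-18. Its daily means were 26.0, 17.5, 16.4, 7.85 and 2.49 CPM, with SDs of 11.8, 14.8, 16.6, 6.3 and 0.571 CPM. Each mean was below the one before, but the spread on the days before day 7 was too wide to resolve the steps between them.

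Mcpt2 (chr14:56042041-56044642, plus strand), a related chymase, was at 42.3, 43.9 and 60.1 CPM on day 0 and 18.9, 18.4 and 9.03 CPM on day 7, also without overlap (log2 fold change -1.66, -2.39 to -0.92, DESeq2 adjusted p = 4.61e-06). The daily means were 48.8, 34.6, 29.8, 23.7 and 15.5 CPM. Mcpt4, a chymase of connective tissue mast cells, was at 45.3, 53.5 and 72.6 CPM and then at 17.8, 46.3 and 10.7 CPM, so replicate 2 lay in the day 0 range. Neither Mcpt1 nor Mcpt2 is in that list of 11 tested genes, of which 10 were on the lower side (median -0.76), none had an unadjusted p under 0.05 and none was without overlap. Mcpt1, Mcpt2 and Mcpt4 are paralogs, and reads they share could be divided between them.

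Red cell transcripts were above day 0. Hbb-bs, a beta globin (chr7:103826534-103828096, minus strand), was at 5.66, 9.35 and 3.2 CPM on day 0 and 14.1, 56.3 and 96.7 CPM on day 7. Every day 7 tumor was above every day 0 tumor, and their own range was wide. The log2 fold change was 3.19 (1.34 to 5.04), with an edgeR unadjusted p = 0.00758 and adjusted p = 0.957 and a DESeq2 adjusted p = 0.045. Hba-a1, an alpha globin (chr11:32283511-32284465, plus strand), was at 4.52, 8.27 and 3.48 CPM and then at 7.08, 51.2 and 67.6 CPM, with replicate 1 inside the day 0 range (log2 fold change 2.95, 0.92 to 4.98, DESeq2 adjusted p = 0.195). The daily means of Hbb-bs were 6.07, 20.3, 6.61, 15.8 and 55.7 CPM.

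The near-identical partners Hbb-bt and Hba-a2, whose reads cannot be cleanly divided from these, had log2 fold changes of 3.46 and 3.4 (DESeq2 adjusted p = 0.0128 and 0.0218). Alas2, the first enzyme of haem synthesis in red cell precursors and reticulocytes, was at 0.506, 0.335 and 0.52 CPM on day 0 and 0.692, 1.86 and 3.26 CPM on day 7, without overlap (log2 fold change 2.08, 0.79 to 3.38, edgeR unadjusted p = 0.00635). Gata1, the erythroid and mast cell transcription factor, was on the other side, at 0.506, 0.633 and 0.48 CPM and then at 0.244, 0.342 and 0.0418 CPM. Bpgm, a glycolytic enzyme rich in red cells, was also lower in each day 7 tumor (log2 fold change -0.36). Of 15 erythroid genes 10 were tested, and 4 of these were entirely above day 0, beside 5.02% of all genes, and 2 entirely below, beside 6.26%, so the globins and Alas2 stood apart from the rest of the list. The order of the day 7 tumors differed here from that of muscle, since replicates 2 and 3 were high and replicate 1 low.

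Transcripts of the matrix were on the lower side. Of 22 tested collagen and matrix genes 21 were lower on day 7 (median log2 fold change -0.44 against -0.02 for all genes), 11 had an unadjusted p under 0.05 beside 2.85% of all genes, and 11 lay entirely below day 0 beside 6.26%. None was called by edgeR, and Fbn1 and Tnc were called by DESeq2. The list stood at 8.11 ± 0.18 on day 0 and 7.57 ± 0.51 on day 7 in mean log2 CPM (SD, n = 3), its day 7 tumors at -0.44, -0.091 and -1.1 from the day 0 mean, and its differences from day 0 on days 1, 3 and 5 were -0.16, 0.5 and -0.073.

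**Figure D5:**
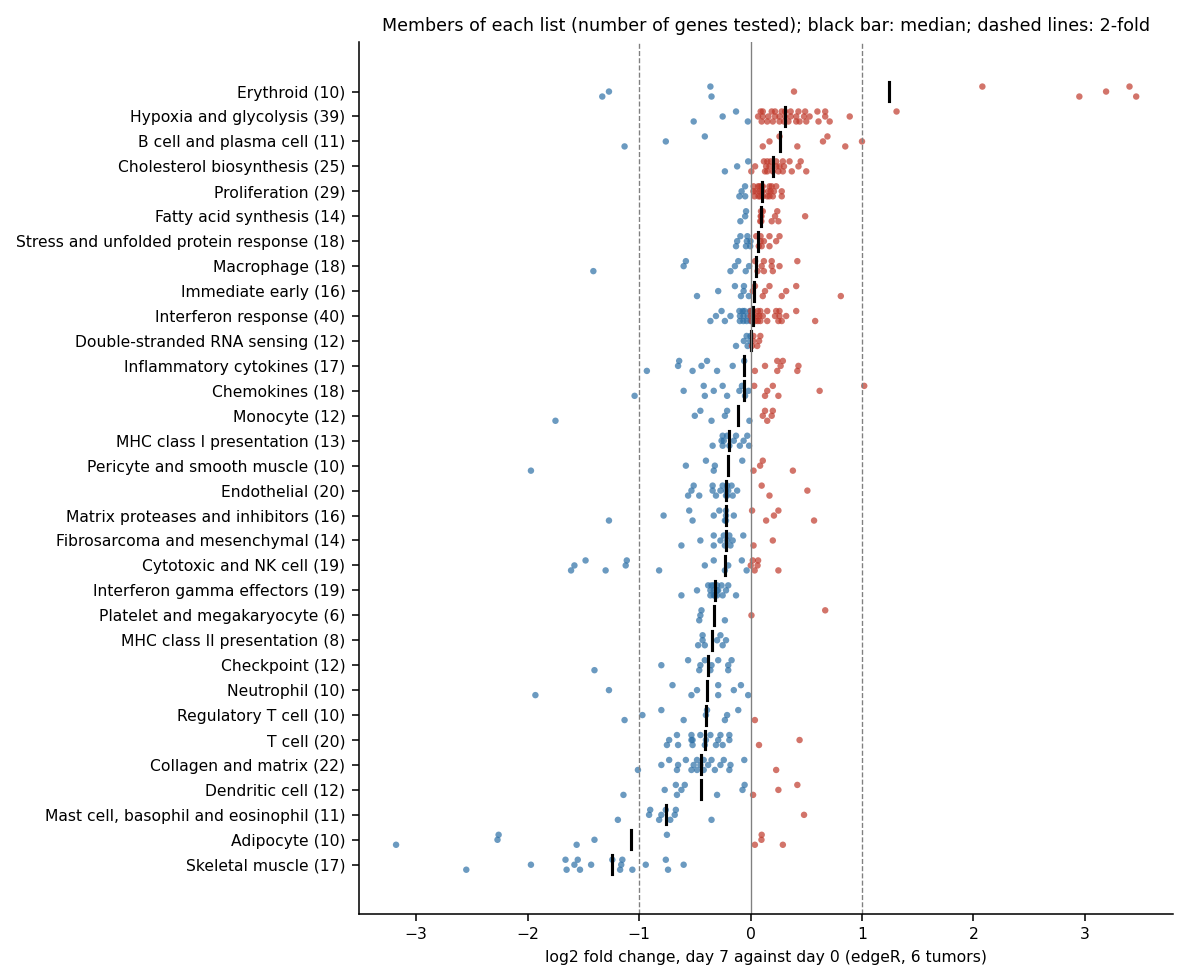
Log2 fold change of day 7 over day 0 for each tested member of the gene lists, 1 point per gene, with a black bar at the list median, a line at 0 and dashed lines at 2-fold. In the collagen and matrix list 21 of 22 points lie below 0 (median -0.44), in the hypoxia list 35 of 39 lie above (median 0.31), and the interferon response list is centred at 0.024.

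Fbn1, the microfibril protein fibrillin 1 (chr2:125300594-125507993, minus strand), was at 564, 488 and 506 CPM on day 0 and 398, 367 and 352 CPM on day 7. The groups were well apart and replicate 2 lay between the other day 7 tumors. The log2 fold change was -0.48 (-0.69 to -0.27, edgeR unadjusted p = 0.00078 and adjusted p = 0.85, DESeq2 adjusted p = 0.00295). Its daily means were 520, 441, 381, 350 and 372 CPM, so it was below day 0 on all 4 treated days. Tnc, tenascin C, a matrix glycoprotein of wounds and tumors, was at 80.7, 117 and 102 CPM and then at 52.3, 62.8 and 33.4 CPM (log2 fold change -1.01, -1.63 to -0.4, DESeq2 adjusted p = 0.00676), after daily means of 129 and 149 CPM on days 1 and 3.

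Fibrillar and basement membrane collagens shared the direction with less separation. Col5a1 was at 581, 507 and 514 CPM on day 0 and 402, 437 and 423 CPM on day 7 (log2 fold change -0.35, edgeR unadjusted p = 0.00411), without overlap. Col4a1, of vessel basement membranes, was at 276, 257 and 237 CPM and then at 155, 229 and 133 CPM (log2 fold change -0.58), and without replicate 2 it was called at -0.84 (edgeR adjusted p = 0.0135). Lox, which cross-links collagen, was at 505, 391 and 389 CPM on day 0 and 317, 323 and 318 CPM on day 7 (log2 fold change -0.42). The most abundant collagens overlapped, Col1a1 at 696, 947 and 790 CPM and then 665, 865 and 487 CPM, and Col3a1 at 1610, 2510 and 2190 CPM and then 2110, 2090 and 1320 CPM. Loxl2 was the 1 member on the higher side (log2 fold change 0.23).

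Among proteases, Adamts4, an aggrecanase, was at 37.5, 33.2 and 33.8 CPM on day 0 and 25.6, 24.6 and 22.5 CPM on day 7, without overlap (log2 fold change -0.52, -0.74 to -0.31, DESeq2 adjusted p = 0.0208). The list of 16 proteases and inhibitors had 11 on the lower side and stood below the day 0 range in all 3 day 7 tumors, at -0.27, -0.12 and -0.34. Mmp9, a gelatinase of myeloid cells, was at 71.6, 20.3 and 33.1 CPM and then at 12.9, 24.2 and 14.7 CPM, with overlap.

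Transcript length went with the same direction. Of the quartile of genes with the longest transcripts 29.7% were on the higher side and of the shortest 60.0%, with median log2 fold changes of -0.061 and 0.043, and 16 of the 22 collagen and matrix genes are in the longest quartile. Fat transcripts differed among the day 7 tumors as well. The adipocyte list stood at -1.94, -0.18 and -2.38 from the day 0 mean in mean log2 CPM, while its summed level of 10 tested genes was 299 to 352 CPM on day 0 and 289 to 377 CPM on day 7. Most of that sum was Scd1, at means of 274 CPM on day 0 and 294 CPM on day 7. Of the 10 genes 6 were on the lower side and 4 on the higher (median -1.07). The part of length, fat and muscle in the matrix result was not tested.

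Endothelial genes lay mostly on the lower side. Of 20 tested 17 were lower (median -0.22), beside 55.5% of all genes, and 11 had an interval within 2-fold, beside 76.5%. The day 7 tumors stood at -0.31, 0.042 and -0.63 from the day 0 mean of the list in mean log2 CPM, replicate 2 inside the day 0 range. With 1 tumor left out the median ran from -0.55 to -0.033. Pecam1, encoding CD31, was at 69.3, 79.2 and 74.3 CPM on day 0 and 50.0, 74.7 and 30.1 CPM on day 7 (log2 fold change -0.53). Nos3, the endothelial nitric oxide synthase, is not in this list but in that of hypoxia and glycolysis. It was at 8.06, 6.63 and 7.69 CPM and then at 4.52, 6.12 and 5.1 CPM, without overlap. Among muscle genes Acta1, skeletal actin, was at 34.1, 49.0 and 39.7 CPM on day 0 and 1.3, 37.5 and 0.167 CPM on day 7, and Ttn, titin, at 26.2, 26.9 and 26.5 CPM and then 2.48, 20.0 and 2.59 CPM. Without replicate 2, 13 of the 17 muscle genes were called lower, beside 1.17% of all genes, Ttn with a log2 fold change of -3.38 (edgeR adjusted p = 6.81e-05).

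Hypoxia and glycolysis genes lay on the higher side in 2 of the 3 day 7 tumors. Of 39 tested genes 35 had a positive log2 fold change (median 0.31), beside 44.5% of all genes. An unadjusted p under 0.05 was reached by 3 on the higher side, beside 1.99% of all genes, and by 1 on the lower, beside 2.85%. None lay entirely above day 0, 1 lay entirely below it, which was Nos3, given above, and none was called. The list was at 7.1 ± 0.19 on day 0 and 7.4 ± 0.34 on day 7 in mean log2 CPM (SD, n = 3), its day 7 tumors at 0.53, -0.09 and 0.45 from the day 0 mean, and replicate 2 was the lowest day 7 tumor for 34 of the 39 genes. Its differences from day 0 on days 1, 3 and 5 were 0.16, -0.28 and 0.0028.

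Car9, a carbonic anhydrase used as a hypoxia marker (chr4:43506966-43513729, plus strand), was at 48.0, 88.1 and 44.4 CPM on day 0 and 121, 53.7 and 122 CPM on day 7. Replicates 1 and 3 were above every day 0 tumor and replicate 2 among them (log2 fold change 0.71, -0.31 to 1.74). Adm, encoding the vasodilator adrenomedullin, had the same pattern, at 14.8, 30.6 and 16.8 CPM and then at 66.0, 24.0 and 64.2 CPM (log2 fold change 1.31, 0.14 to 2.47, edgeR unadjusted p = 0.0358), and its daily means were 20.8, 24.7, 16.3, 21.3 and 51.4 CPM. Ldha, the lactate dehydrogenase subunit of glycolytic cells, was at 1160, 1340 and 1130 CPM on day 0 and 1900, 1210 and 1700 CPM on day 7 (log2 fold change 0.41, edgeR unadjusted p = 0.0436). Pgk1, phosphoglycerate kinase, was at 869, 1010 and 773 CPM and then at 1470, 888 and 1340 CPM (log2 fold change 0.48). Slc2a1, the glucose transporter GLUT1, followed at 206, 241 and 178 CPM and then 313, 202 and 362 CPM, while Vegfa, the angiogenic factor, was at 301, 294 and 225 CPM and then at 318, 197 and 358 CPM, a log2 fold change of 0.091 (-0.48 to 0.66). Without replicate 2, 4 of the 39 genes were called higher, beside 0.123% of all genes, among them Ldha at 0.57 (edgeR adjusted p = 0.0408) and Pgk1 at 0.67 (adjusted p = 0.0426).

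The promoters of this list often hold the core bound by hypoxia-inducible factors, and 3 of them are shown as the counterpart of the interferon element above. The core was searched as ACGTG, or CACGT on the other strand, over the same 250 bases, and it lay in 20 of the 34 list promoters in the table (58.8%) and in 4998 of 27025 in all (18.5%). Capitals mark 1 match in each stretch (RefSeq, GRCm38.p6). Ldha is on the plus strand (chr7:46845745-46845799, match 34 to 30 bases before the start), Pgk1 on the plus strand (chrX:106186944-106186998, 131 to 127 before) and Bnip3, a mitophagy receptor, on the minus strand (chr7:138909584-138909638, 107 to 103 before). Bnip3 was at 111, 188 and 111 CPM on day 0 and 293, 104 and 228 CPM on day 7.
Ldha: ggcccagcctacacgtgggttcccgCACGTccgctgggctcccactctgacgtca
Pgk1: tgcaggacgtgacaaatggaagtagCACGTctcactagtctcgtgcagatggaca
Bnip3: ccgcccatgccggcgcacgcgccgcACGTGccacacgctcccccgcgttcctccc

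Cholesterol synthesis genes lay mostly on the higher side of day 0, with 1 tumor apart. The list of 25 genes had been 0.83 below day 0 on day 3 in mean log2 CPM and was 0.14 above on day 7, at 0.67, -0.21 and -0.027 in the 3 tumors. Of the 25 genes 22 were on the higher side, beside 44.5% of all genes (median 0.2, but -0.093 without day 7 replicate 1). An interval within 2-fold was found for 13, beside 76.5% of all genes, so a return of the whole list to day 0 was not shown. Hmgcs1, the synthase at the head of the pathway, was at 132, 112 and 81.7 CPM on day 0 and 185, 72.7 and 98.4 CPM on day 7, high in replicate 1. Fdps, which makes farnesyl diphosphate, was at 92.1, 102 and 72.1 CPM and then at 182, 85.8 and 110 CPM.

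Proliferation genes lay within 2-fold of day 0. All 29 tested genes had an interval within 2-fold, 25 were on the higher side (median 0.1), 5 lay entirely above day 0, beside 5.02% of all genes, and 2 had an unadjusted p under 0.05 on the higher side, beside 1.99%. Mki67, the proliferation marker Ki-67, was at 511, 551 and 555 CPM on day 0 and 668, 476 and 551 CPM on day 7 (log2 fold change 0.068, -0.23 to 0.36), after a mean of 361 CPM on day 3. Cdk1, the mitotic kinase, was at 136, 161 and 161 CPM and then at 218, 165 and 173 CPM, just without overlap. Mcm5, of the replicative helicase, was at 199, 210 and 225 CPM on day 0 and 248, 243 and 237 CPM on day 7 (log2 fold change 0.2, edgeR unadjusted p = 0.0294).

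Pmaip1 and Jak2 are named by their p. Pmaip1, encoding the pro-apoptotic protein NOXA, was at 53.7, 48.6 and 47.9 CPM on day 0 and 34.2, 27.3 and 30.4 CPM on day 7. The log2 fold change was -0.71 (-0.95 to -0.47, edgeR unadjusted p = 0.00016 and adjusted p = 0.526, DESeq2 adjusted p = 0.000344), and its daily means were 50.1, 36.5, 26.0, 31.4 and 30.6 CPM. Jak2, the kinase of the interferon gamma and cytokine receptors, was at 126, 119 and 124 CPM and then at 88.2, 96.0 and 89.1 CPM (log2 fold change -0.43, -0.59 to -0.27, DESeq2 adjusted p = 0.00136). In both genes all day 7 tumors were below all day 0 tumors, replicate 2 included.

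Further genes entirely below day 0 were Iglon5, a neural cell adhesion protein, at 4.99, 4.24 and 4.52 CPM and then 1.71, 1.75 and 2.01 CPM (DESeq2 adjusted p = 0.00329), and Prune2, at 281, 256 and 260 CPM and then 197, 187 and 205 CPM (DESeq2 adjusted p = 0.00214). Per3, of the circadian clock, was at 17.9, 15.8 and 16.4 CPM on day 0 and 11.4, 11.1 and 11.8 CPM on day 7 (log2 fold change -0.54, edgeR unadjusted p = 0.000823). Axin2, a target and inhibitor of Wnt signaling, was at 57.5, 42.7 and 49.2 CPM and then at 33.1, 28.8 and 35.6 CPM. None of these was called by edgeR.

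On the higher side, Kpna2, a nuclear import receptor, was at 53.4, 65.2 and 56.2 CPM on day 0 and 78.8, 86.8 and 78.1 CPM on day 7 (log2 fold change 0.48, 0.26 to 0.7, DESeq2 adjusted p = 0.00776). Ier3, an early response gene that modulates cell survival, was at 45.7, 49.4 and 41.6 CPM and then at 94.1, 57.4 and 88.1 CPM (log2 fold change 0.81, 0.37 to 1.25, DESeq2 adjusted p = 0.00975). It was also called by edgeR without replicate 2, at 1.0 (adjusted p = 0.00513). Rpl27, a ribosomal protein, was at 109, 121 and 110 CPM on day 0 and 170, 139 and 153 CPM on day 7, and Snrpg, a spliceosome core protein, at 50.8, 58.0 and 49.6 CPM and then 74.0, 66.9 and 69.6 CPM. Neither gene was called by edgeR.

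Most stress and early response genes were near day 0, with median log2 fold changes of 0.063 and 0.03. Of 18 stress and unfolded protein response genes 17 had an interval within 2-fold, beside 76.5% of all genes. So did 13 of 16 immediate early genes, a share close to that of all genes. Ier3, given above, was the highest of the immediate early genes (log2 fold change 0.81) and the 1 entirely above day 0. Atf3, a stress-induced transcription factor, was at 23.5, 25.9 and 15.1 CPM on day 0 and 26.7, 20.3 and 25.4 CPM on day 7. Fos was at 23.7, 33.6 and 23.5 CPM and then at 17.8, 64.7 and 18.0 CPM, high in replicate 2. Trp63, encoding the epithelial factor p63, was high in the same tumor, at 2.9, 2.83 and 1.32 CPM on day 0 and 2.97, 24.2 and 3.43 CPM on day 7.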

How the data were processed

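RNA-seq of 15 tumors was analysed, of which the 3 of day 0 and the 3 of day 7 were compared. The deposited table holds the estimated counts per gene that the authors made with kallisto, and the labels name GRCm38; the transcript set is not given in the sources used here. These counts were used as deposited. Of 32544 entries, 1 was named by a date and was left out (0.0268% of the counts in the tumor where it was highest). Genes with CPM above 0.366 in at least 3 of the 15 tumors were kept, as in the study. TMM factors were set over 15 tumors, and the 6 tumors were fitted with the robust quasi-likelihood test of edgeR 4.0.16 (limma 3.58.1, R 4.3.3), two-sided, with Benjamini-Hochberg adjustment and calls at 0.05. The 95% intervals come from that fit, and CPM logs used a prior count of 2. No test is stated in the study for this comparison, and the 6-tumor fit was chosen over a fit of 15 with earlier results known. The fit was tested on simulated data.

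Genes named are among the 15 with the smallest p per direction, the extremes and most abundant member of each list, and a fixed set, with further list members and some genes chosen after their values were seen. Some genes these rules give are not reported here. Members and lists were chosen with earlier results of these data known, so lists are described by counts and medians without a test. Locations and transcript lengths (known for 97.1% of genes tested) are from GENCODE M21, promoters from RefSeq. Alternatives were the fit of 15 tumors, RLE (relative log expression) size factors, TMM of the 6 tumors, other filters, DESeq2 1.42.0, voom with quality weights, no robust moderation, a replicate block and each tumor left out. A legend of the study counts 3 mice in each group of the time course, while the labels do not tie a tumor to a mouse; p-values measure the spread between these tumors.

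Same-numbered tumors of day 0 and day 7 deviated from their group means with correlations of 0.0286, 0.202 and -0.16, so the replicate numbers were not taken as pairs.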

Additional observations from a re-analysis of the deposited data

How the results depend on the processing

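The count called, 1 gene, was the same gene, Gm20431, under RLE size factors, TMM of the 6 tumors, other filters and voom with quality weights. It was 33 with DESeq2, 0 in the fit of 15 tumors, 0 without robust moderation, and 0 when genes without counts in a group were left out, a setting chosen after seeing the data. Leaving out 1 tumor gave 0 to 201 called genes, the 201 without day 7 replicate 2, and 2589 to 5163 genes without overlap, where fewer tumors make overlap rarer. With the replicate block 1 gene was called, but it was Mcpt1, and Gm20431 had an adjusted p of 0.192 in that edgeR fit. Not every tumor correlated best with its own number.

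The interval within 2-fold held for 11060 to 11959 genes under every alternative run. Signs of small log2 fold changes turned for Cd68 (0.0051 with DESeq2), Ly6c2 (0.0018 with TMM of 6 tumors, 0.0082 with DESeq2) and Fos (-0.17 with voom). With 1 tumor left out the values ran from -0.033 to 0.32 for Atf3, -0.3 to 0.17 for Cd68, -1.22 to 0.083 for Cd8a, -0.4 to 0.088 for Cxcl10, -0.59 to 0.62 for Fos, -0.35 to 0.38 for Hmgcs1, -0.064 to 0.17 for Ifit1, -0.043 to 0.37 for Irf7, -0.38 to 0.19 for Ly6c2, -0.038 to 0.31 for Krt8, -0.07 to 0.18 for Mki67, -1.28 to 0.034 for S100a8, -0.049 to 0.00086 for Tmem189, -0.0097 to 0.079 for Ube2v1 and -0.086 to 0.31 for Vegfa. No list median changed sign under RLE size factors or TMM of the 6 tumors. With voom the medians of the interferon response, double-stranded RNA sensing, B cell, macrophage and immediate early lists turned to -0.031, -0.031, -0.63, -0.21 and -0.0019, with the block those of the sensing and macrophage lists to -0.0027 and -0.025, and leaving out 1 tumor turned those of 11 lists named in the report. Without day 7 replicate 2 the medians of the cytotoxic, neutrophil and muscle lists were -1.59, -1.44 and -4.53, and that of the erythroid list was 2.95 with a filter over the 6 tumors and 0.17 without a filter. The causes were not tested.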
